A study of Mus musculus with 6 samples.

Results

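The genes described are the named ribosomal protein pseudogenes of the mouse, whose symbol is that of a cytosolic ribosomal protein gene followed by "-ps" and usually a number. Of the 31169 genes in the count table, 208 had such a name. The 138 members were selected on their measured counts, at least 10 summed over the 6 libraries, and each was compared with the parent gene named before "-ps". The remaining 70 had fewer counts. The 138 pseudogenes belonged to 53 parent genes, of which 32 had at least 2 pseudogenes. As 71.0% of all counts came from the saline libraries, a gene read mainly in saline retina reached 10 counts more easily.

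Processed pseudogenes arise when the mRNA of a gene is reverse transcribed and the copy is inserted elsewhere in the genome, usually by the enzymes of LINE-1 elements, so that the copy lacks the introns of its parent. Ribosomal protein genes, whose short mRNAs are among the most abundant of any cell, have left an unusually large number of such copies in mammalian genomes. Most are regarded as non-functional, and since they resemble their parents closely, a sequencing read from one can often also be aligned to the other.

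Polyadenylated RNA was sequenced in stranded libraries from whole retina of male C57BL/6 mice at 2 months of age, 4 weeks after an intracameral injection at 1 month of age. In the microbead occlusion model, polystyrene beads of 15 µm block the outflow of aqueous humor and raise the pressure in the eye, as a model of glaucoma, and the control eyes received saline. There were 3 saline-injected and 3 microbead-injected libraries, and no gene was altered in either group. As no source ties each library to a separate animal, p-values measure the spread between these libraries, which may be technical. Total counts ran from 36085737 to 46481382 in the saline and from 13574949 to 19834366 in the microbead libraries. In the sequencing names that the labels give as descriptions, the saline libraries carry one prefix and the microbead libraries another, whereas the titles run on through both groups. Whether the prefixes mark separate runs is not stated, so an effect of the prefix cannot be told apart from one of the beads. Summed rod markers were at 53475 to 82714 counts per 1000000 (CPM) in every library. The summed level of 3 lens markers (Cryaa, Crygd and Crybb2) was 24.2, 0.373 and 295.6 CPM in saline replicates 1, 2 and 3, and at most 0.144 CPM in a microbead library. Summed endothelial markers (3 genes) were at 49.0 to 69.8 CPM in saline and 32.1 to 40.4 CPM in microbead libraries, and summed horizontal cell markers (2 genes) at 8.15 to 19.2 CPM and 6.04 to 7.65 CPM. Saline libraries also stood apart from each other in summed ganglion cell markers (6 genes), at 284.7, 802.5 and 1033.3 CPM in saline replicates 1, 2 and 3 against 710.7 to 966.9 CPM in microbead libraries, and in pigment epithelium markers (4 genes), at 10.9, 52.5 and 228.6 CPM against 96.7 to 117.5 CPM. The part of these markers in the results was not tested, and counts are also given below without single libraries. In whole retina, fewer cells of a type and less RNA per cell cannot be told apart.

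In the annotation used for positions (GENCODE vM21, GRCm38), 136 of the 138 pseudogenes were found, on 20 chromosomes. Of these, 127 were annotated as processed pseudogenes, 5 as transcribed processed pseudogenes and 4 as protein-coding genes. Of the 136, 135 consisted of 1 exon. They lay between genes in 86 cases, in an intron of another gene in 44 and over an exon of another gene in 6, and 29 of the intronic copies lay on the strand opposite to the host gene. Their median length was 480 bases (151 to 1214), and they matched the parent transcript over a median of 98.4% of aligned bases, the lowest value being 86.7%. A median of 8.5 bases differed from the parent. The parent's reading frame was open from start to end in 82, interrupted in 29 and only partly contained in 23, and in 1 (Rpl13-ps1) the annotated strand was opposite to that of the parent.

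The stretches below show what separates the pseudogenes that the results turn on from their parents. They are read from GENCODE vM21 transcripts, 5′ to 3′ on the coding strand, and each covers 100 bases of the parent's coding sequence, taken where the copies shown differ most from it. Capitals in a pseudogene mark bases that differ from the parent or are inserted. Rpl31 encodes a protein of the large ribosomal subunit and has the largest family here. Bases 264 to 363 of its coding sequence are shown with 2 copies that fell, Rpl31-ps14 at chr1:66948578-66948677 (minus strand) and Rpl31-ps11 at chr3:94604423-94604522 (minus strand), and with Rpl31-ps8 at chr15:90764294-90764393 (minus strand), whose 378 bases are identical to the parent:
Rpl31: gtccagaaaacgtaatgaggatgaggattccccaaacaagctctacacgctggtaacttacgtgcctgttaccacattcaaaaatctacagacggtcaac
Rpl31-ps14: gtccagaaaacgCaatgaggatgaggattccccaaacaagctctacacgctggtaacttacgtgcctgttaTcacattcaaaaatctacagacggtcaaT
Rpl31-ps11: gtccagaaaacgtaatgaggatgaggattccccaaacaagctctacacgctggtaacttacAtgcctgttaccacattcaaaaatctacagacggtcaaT
Rpl31-ps8: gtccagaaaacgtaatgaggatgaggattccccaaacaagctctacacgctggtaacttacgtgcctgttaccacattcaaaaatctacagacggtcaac

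Rpsa encodes a protein of the small subunit that is also known as the laminin receptor. Bases 111 to 210 are shown with Rpsa-ps12 at chr4:149143175-149143278 (minus strand), which carries an insertion of 4 bases and an interrupted reading frame, and with Rpsa-ps10 at chr3:150073333-150073432 (minus strand):
Rpsa: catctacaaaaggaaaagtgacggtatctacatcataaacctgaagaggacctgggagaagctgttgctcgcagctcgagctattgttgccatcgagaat
Rpsa-ps12: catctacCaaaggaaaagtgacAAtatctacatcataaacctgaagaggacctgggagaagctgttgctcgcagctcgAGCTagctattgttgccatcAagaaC
Rpsa-ps10: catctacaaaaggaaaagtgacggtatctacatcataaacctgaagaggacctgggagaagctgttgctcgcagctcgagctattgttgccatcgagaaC

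The copies that rose were Rpl36-ps9 and Rps24-ps3, whose parents encode proteins of the large and of the small subunit. For Rpl36, bases 61 to 160 are shown with the 76 bases of Rpl36-ps9 at chr5:137433044-137433119 (plus strand), where 4 bases are substituted and 24 are missing. For Rps24, bases 174 to 273 are shown with Rps24-ps3 at chrX:79195220-79195319 (plus strand):
Rpl36: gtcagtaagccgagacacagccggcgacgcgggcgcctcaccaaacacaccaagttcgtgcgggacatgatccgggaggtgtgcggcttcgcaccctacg
Rpl36-ps9: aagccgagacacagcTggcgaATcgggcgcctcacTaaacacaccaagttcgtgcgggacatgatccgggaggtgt
Rps24: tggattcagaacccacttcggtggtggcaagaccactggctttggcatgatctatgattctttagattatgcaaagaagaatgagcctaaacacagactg
Rps24-ps3: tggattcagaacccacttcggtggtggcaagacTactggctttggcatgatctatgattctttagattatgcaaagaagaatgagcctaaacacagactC

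A further 4 of the 8 copies with the largest falls are shown because few bases set some of them apart from the parent: Rps27a-ps2 at chr9:83409935-83410034 (plus strand), Rps13-ps1 at chr8:87048049-87048148 (plus strand), Rpl5-ps2 at chr2:154704026-154704125 (plus strand) and Rps2-ps13 at chrX:52898588-52898687 (plus strand). Rps27a encodes a fusion of ubiquitin with a small-subunit protein, Rpl5 a large-subunit protein that binds a ribosomal RNA, and Rps13 and Rps2 small-subunit proteins:
Rps27a: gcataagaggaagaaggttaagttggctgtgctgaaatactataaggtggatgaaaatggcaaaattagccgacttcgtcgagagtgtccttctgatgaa
Rps27a-ps2: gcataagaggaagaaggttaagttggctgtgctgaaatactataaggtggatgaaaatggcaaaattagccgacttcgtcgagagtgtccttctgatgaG
Rps13: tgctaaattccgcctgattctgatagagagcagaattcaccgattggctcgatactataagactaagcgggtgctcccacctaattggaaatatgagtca
Rps13-ps1: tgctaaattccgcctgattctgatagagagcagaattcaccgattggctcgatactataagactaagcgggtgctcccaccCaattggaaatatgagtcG
Rpl5: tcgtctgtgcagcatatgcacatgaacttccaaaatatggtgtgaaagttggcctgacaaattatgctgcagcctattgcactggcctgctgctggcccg
Rpl5-ps2: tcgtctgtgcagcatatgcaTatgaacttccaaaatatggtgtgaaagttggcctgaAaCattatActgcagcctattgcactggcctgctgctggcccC
Rps2: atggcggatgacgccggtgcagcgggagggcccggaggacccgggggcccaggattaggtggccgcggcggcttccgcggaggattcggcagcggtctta
Rps2-ps13: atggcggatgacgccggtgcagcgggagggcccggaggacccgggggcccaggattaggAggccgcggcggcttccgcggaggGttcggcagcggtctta

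The most abundant pseudogene, Rpl10a-ps1, has the sequence of its parent, which encodes a large-subunit protein. Its first stretch, at chr1:64994505-64994604 (minus strand), therefore has no capitals:
Rpl10a-ps1: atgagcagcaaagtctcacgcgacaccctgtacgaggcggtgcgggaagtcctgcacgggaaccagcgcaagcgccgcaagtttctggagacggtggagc

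Named ribosomal protein pseudogenes were more often lower than higher after microbead injection. Of the 138, 65 passed the filter on low counts (filterByExpr of edgeR, which asked for about 0.358 CPM in at least 3 libraries). Of these 65, 20 fell and 2 rose at an adjusted p-value under 0.05 (edgeR's quasi-likelihood test), and 43 did not pass. Over all 17707 genes tested, 6.31% fell and 6.46% rose. The median log2 fold change of the 65 was -0.82, against -0.03 over all genes tested. The filter bears on this count, since 34 of the 65 reached the required level in all 3 saline but not in all 3 microbead libraries, and 5 the reverse. Among the 21 that reached it in all 6 libraries, edgeR, DESeq2 and limma-voom called 0 lower (1, 1 and 0 at an unadjusted p under 0.05) and 1, 2 and 2 higher, and their median in edgeR was 0.47. Reaching it in all 3 microbead libraries drops members near 0 there by construction. The 0 lower and the median of these 21 are therefore in part set by this selection. Over all 17707 genes tested, edgeR, DESeq2 and limma-voom called 2261, 3582 and 2210 in either direction.

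All 138 were therefore also fitted without a filter. There, 29 fell and 3 rose (Rpl36-ps9, Rps24-ps3 and, named after its value was seen, Rps10-ps2), against 7.09% lower and 4.85% higher of 31169 genes, and 105 of the 138 fitted values lay below 0. Their median was -1.70, against -0.23 over all genes, and -1.38 when the 18 pseudogenes at 0 counts in all microbead libraries were set to their bounds. Of the 20 that fell in the filtered fit, 18 also passed here.

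These counts depended on single libraries. The filter also kept a different number of pseudogenes in each fit. In the filtered edgeR fit, the number that fell was 11 of 53 without saline replicate 1, 0 of 55 without saline replicate 2 and 9 of 52 without saline replicate 3 (against 7.3%, 0.867% and 4.1% of all genes). It was 4, 2 and 0 of 92 without microbead replicates 1, 2 and 3 (against 1.96%, 1.73% and 0.104%). In both fits with 0, the number lower at an unadjusted p under 0.05 was 22 (without saline replicate 2) and 39 (without microbead replicate 3). In the fit without filter, 25 of 138, 15 of 137 and 22 of 138 fell without saline replicates 1, 2 and 3 (against 7.11%, 3.68% and 6.05%), and 20, 17 and 13 of 138 without microbead replicates 1, 2 and 3 (against 4.79%, 4.97% and 3.13%).

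In CPM, 69 of the 138 pseudogenes were lower in every microbead library than in any saline library, 17 were higher in every one, and 52 overlapped. Among the 23279 genes with at least 10 counts, 18.7% were lower and 15.7% higher in this way. As most pseudogenes were sparse, with a median of 57 counts in all, the 10968 genes with 10 to 648 summed counts, the range of the pseudogenes, serve as a closer background. Of these, 14.9% were lower and 13.0% higher without overlap, and 5.22% fell in the fit without filter. In the saline libraries 134, 136 and 133 of the 138 were detected, and in the microbead libraries 97, 92 and 92. Detection depends on depth and on the selection by summed counts, and the microbead libraries were the shallower ones. The part of both in this difference was not tested. The 18 at 0 in all microbead libraries made up 13.0% of the pseudogenes, against 3.39% of genes with at least 10 counts and 7.18% of those in the narrower range. The number at 0 in all saline libraries was 0, against 0.0515% of genes with at least 10 counts. Of all 208 names, whatever their counts, 154 had a lower level in the pooled microbead counts and 54 a higher one, so that 74.0% were lower, against 58.4% of all genes with a count.

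The 8 pseudogenes with the largest falls past the test had between 14 and 54 counts in every saline library and at most 3 in any microbead library. For Rpsa-ps12 there were 48, 48 and 54 counts in saline replicates 1 to 3 and 1, 1 and 3 in the microbead libraries. Its level was 1.27 ± 0.273 CPM (SD, n = 3) in saline and 0.106 ± 0.0775 CPM (n = 3) in microbead retina, a log2 fold change of -3.55 (standard error 0.66, edgeR adjusted p = 0.0159). Its parent Rpsa did not pass the test (0.16, standard error 0.21, edgeR adjusted p = 0.636). Rpsa-ps12 amounted to 0.368%, 0.300% and 0.374% of the counts of Rpsa in the saline libraries and to 0.0101%, 0.0218% and 0.0522% in the microbead libraries.

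Rpl5-ps2 was counted 30, 39 and 30 times in saline and 1, 0 and 1 times in microbead libraries. With 2 counts in the microbead group, its pooled level was 19.9-fold lower (95% counting interval 5.37 to 166.8, edgeR adjusted p = 0.0159). Rpl17-ps10, a copy of another large-subunit gene, was counted 21, 39 and 28 times in saline and 1 time in each microbead library, a pooled level 11.8-fold lower (3.91 to 58.4, edgeR adjusted p = 0.0181). In both, every microbead library lay below every saline library, as in all 20 that fell. Since they were chosen for their fall, this adds no separate evidence. Rpl17 itself was at 207.9 ± 30.02 CPM in saline and 309.2 ± 58.6 CPM in microbead retina (n = 3 each, edgeR adjusted p = 0.0835), and Rpl5 at 183.1 ± 24.4 CPM and 133.6 ± 41.4 CPM (adjusted p = 0.210).

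Rps13-ps1, which differs from Rps13 at 2 bases, had 43, 23 and 26 counts in saline and 2, 0 and 0 in microbead libraries, 18.5-fold lower when pooled (4.98 to 155.2, edgeR adjusted p = 0.0268). Rps13 fell as well (log2 fold change -0.68, standard error 0.19, edgeR adjusted p = 0.0491). Rps27a-ps2, with 1 base different from Rps27a, had 20, 20 and 17 counts against 1, 0 and 0, a pooled level 22.9-fold lower (3.96 to 921.9, edgeR adjusted p = 0.0250). It lies in an intron of Lca5, on the opposite strand, and Lca5, which encodes the ciliary protein lebercilin, was at 66.0 CPM in saline and 72.7 CPM in microbead retina (edgeR adjusted p = 0.664). For Rps2-ps13 the counts were 14, 23 and 20 against 1, 0 and 1 (11.5-fold lower, 3.03 to 97.02, edgeR adjusted p = 0.0329).

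Of the 20 that fell, 2 had 0 counts in every microbead library. Rps4l-ps had 21, 18 and 16 counts in saline, which puts it at least 7.38-fold lower with a floor of 3 counts over the microbead group (edgeR adjusted p = 0.0226). Its named parent Rps4l, itself annotated as a transcribed processed pseudogene, was at 46.6 ± 11.9 CPM in saline and 37.2 ± 8.79 CPM in microbead retina (n = 3 each, edgeR adjusted p = 0.411). Rpl31-ps14 had 17, 23 and 14 counts in saline and was at least 7.25-fold lower (edgeR adjusted p = 0.0225).

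For 16 of the 20 pseudogenes that fell, the parent did not pass the test, and for 4 it fell. As the 20 were chosen for their own fall, which was larger than the change of any parent that fell, their ratio to the parent adds no separate evidence.

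Both pseudogenes that rose were higher in every microbead library than in any saline library. Since they were chosen for their rise, this adds no separate evidence. Rpl36-ps9 was counted 69, 47 and 11 times in saline and 105, 61 and 113 times in the shallower microbead libraries. Its level went from 1.04 ± 0.762 CPM to 5.72 ± 1.49 CPM (SD, n = 3 each), a log2 fold change of 2.45 (standard error 0.56, edgeR adjusted p = 0.0265), and the groups did not overlap. Saline replicate 3, at 0.314 CPM, was well below saline replicate 1, at 1.83 CPM. Relative to Rpl36, which did not pass the test (-0.28, standard error 0.20, edgeR adjusted p = 0.376), Rpl36-ps9 went from 2.26%, 1.24% and 0.318% to 6.11%, 7.88% and 10.8%. It shares no 100-base stretch with any other annotated transcript and lies in an intron of Zan, which encodes the sperm protein zonadhesin, on the opposite strand. Zan was at 21.0 CPM in saline and 33.8 CPM in microbead retina (edgeR adjusted p = 0.274).

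Rps24-ps3 was counted 25, 26 and 18 times in saline and 83, 30 and 21 times in microbead libraries. These are 0.664, 0.539 and 0.514 CPM against 4.27, 2.17 and 1.36 CPM (log2 fold change 2.18, standard error 0.52, edgeR adjusted p = 0.0288). All microbead libraries lay above all saline libraries, with microbead replicate 1 the highest. Rps24 was at 245.1 ± 28.7 CPM in saline and 368.5 ± 105.7 CPM in microbead retina (n = 3 each, log2 fold change 0.59, edgeR adjusted p = 0.106).

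Of these 10 calls, 5 held in at least 1 of the edgeR fits that left out a library and 5 in none. In the edgeR fits that left out 1 library, Rpsa-ps12, Rpl5-ps2, Rpl17-ps10 and Rpl36-ps9 stayed under 0.05 in 2 of 6 fits (without saline replicate 1 and without saline replicate 3), and Rps24-ps3 in 1 of 6 (without saline replicate 1). Rps13-ps1 passed in 0 of the 4 such fits whose filter it met, and Rps27a-ps2, Rps2-ps13, Rps4l-ps and Rpl31-ps14 in 0 of 3. All 10 kept their direction in these fits, with adjusted p-values from 0.0104 to 0.120. How far the fold changes moved differed between genes. For Rpl17-ps10 the log2 fold change lay between -3.60 and -3.33 in the 6 fits, and for Rpl36-ps9 between 2.03 and 3.11. For Rps13-ps1 it lay between -7.57 and -3.68 in its 4 fits, and for Rps27a-ps2 between -6.85 and -3.86 in its 3.

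**Figure D1:**
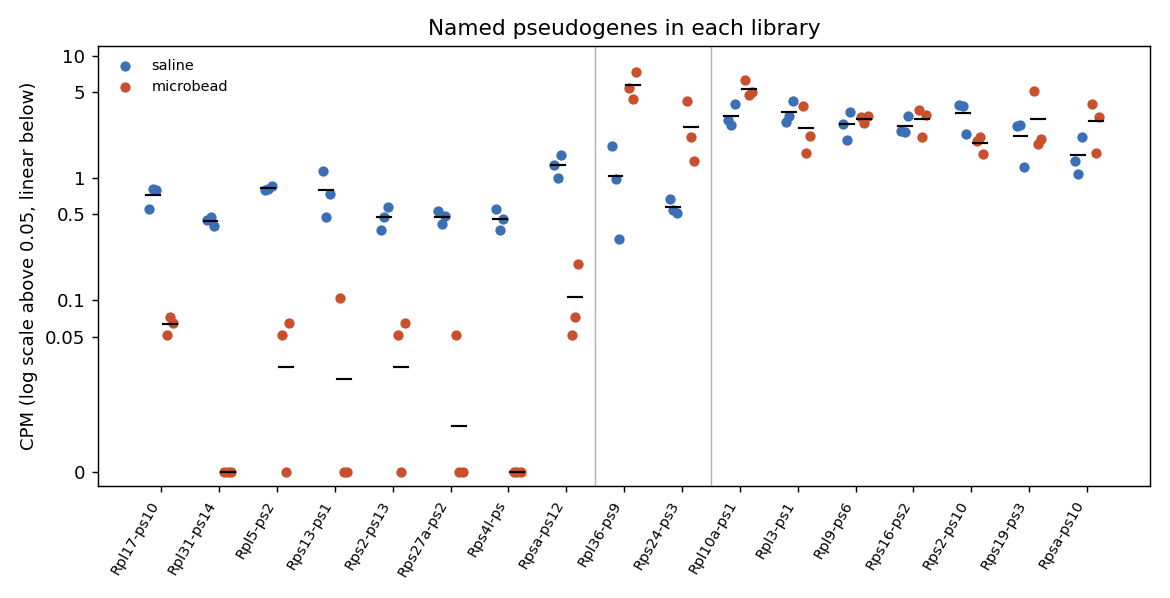
CPM of 17 pseudogenes in each of the 3 saline (blue) and 3 microbead (orange) libraries, with the group mean as a black bar, on a scale that is logarithmic above 0.05 CPM and linear below. The left block holds the 8 largest falls past the test, the middle block the 2 that rose and the right block the other 7 of the 8 most abundant. In the left block every microbead point lies below every saline point, with Rpl31-ps14 and Rps4l-ps at 0 in all 3. These 8 were chosen for their falls, so this adds no separate evidence.

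By mean level over all 6 libraries, the most abundant pseudogenes were not among those that fell. This ranking includes the microbead level, so a fall lowers the rank and a rise raises it. With the saline mean level alone, the log2 fold change without filter had a Spearman correlation of 0.07 (138 pseudogenes, which share libraries). The 8 with the highest mean level lay between 2.22 and 4.30 CPM, and of these Rpl36-ps9 alone passed the filtered edgeR test. Rpl10a-ps1, at the top, was at 2.97, 2.70 and 3.99 CPM in saline and 6.28, 4.77 and 5.07 CPM in microbead libraries (log2 fold change 0.74, standard error 0.31, edgeR adjusted p = 0.134). Its groups did not overlap, while Rpl10a was at 182.9 ± 20.7 CPM and 183.8 ± 43.4 CPM (n = 3 each). Rpl10a-ps1 made up 1.51%, 1.69% and 2.08% of the Rpl10a counts in saline and 2.83%, 3.50% and 2.62% in microbead libraries.

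Rps16-ps2, likewise identical to its parent, was at 2.67 ± 0.482 CPM in saline and 3.01 ± 0.748 CPM in microbead retina (n = 3 each, edgeR adjusted p = 0.773), and the groups overlapped. Rpl9-ps6, annotated as protein-coding and with 1 base different from Rpl9, was at 2.76 ± 0.714 CPM and 3.05 ± 0.200 CPM (edgeR adjusted p = 0.806). The log2 fold changes of the parents were -0.66 for Rps16 and -0.70 for Rpl9 (edgeR adjusted p = 0.0609 and 0.0509), and the ratio of each pseudogene to its parent was higher in all 3 microbead libraries. Rps19-ps3, Rpsa-ps10 and Rpl3-ps1 overlapped between the groups, with log2 fold changes of 0.47, 0.93 and -0.42 (edgeR adjusted p = 0.561, 0.201 and 0.515). Rps2-ps10 lies in an intron of the phototransduction gene Pde6a on the opposite strand. It was at 3.96, 3.86 and 2.28 CPM in saline and 2.01, 2.17 and 1.56 CPM in microbead libraries, without overlap, and did not pass the test (-0.82, standard error 0.38, edgeR adjusted p = 0.170).

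Of the 9 pseudogenes not annotated as plain processed pseudogenes, the 5 most abundant were Rpl9-ps6, Rps2-ps10, Rpl29-ps2, Rps26-ps1 and Rps15a-ps4. By edgeR, DESeq2 and limma-voom alike, 0 of the 5 passed, and 2 were higher at an unadjusted p under 0.05. Rpl29-ps2, which has 2 exons, was at 1.12, 1.37 and 1.43 CPM in saline and 3.19, 1.95 and 2.79 CPM in microbead libraries, without overlap (log2 fold change 1.02, edgeR adjusted p = 0.106). Rps26-ps1 was at 0.611, 0.290 and 0.371 CPM against 1.80, 1.23 and 0.974 CPM (1.66, edgeR adjusted p = 0.0681). Its parent Rps26, a small-subunit gene, was one of the 2 parents that rose (1.35, standard error 0.24, edgeR adjusted p = 0.0149). Rps15a-ps4 overlapped between the groups (1.03, edgeR adjusted p = 0.305).

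Copies of the same parent could differ in the sign of their fitted values. In the families of Rpl31, Rpsa, Rpl21 and Rps2, however, 0 copies rose past the edgeR test, with or without the filter. Rpl31, with 9 pseudogenes, was at 121.6 ± 14.6 CPM in saline and 93.3 ± 26.3 CPM in microbead retina (n = 3 each, log2 fold change -0.38, edgeR adjusted p = 0.263). Of its copies, Rpl31-ps14 and Rpl31-ps11 fell in the filtered fit. Rpl31-ps11 had 22, 30 and 25 counts in saline and 3, 0 and 0 in microbead libraries, 10.3-fold lower when pooled (3.41 to 51.2, edgeR adjusted p = 0.0452). Rpl31-ps8, the identical copy, was at 0.611, 0.353 and 0.456 CPM in saline and 1.49, 1.08 and 2.27 CPM in microbead libraries, a log2 fold change of 1.77 just short of the threshold (standard error 0.51, edgeR adjusted p = 0.0501). In the stretches printed above, Rpl31-ps14 has 3 and Rpl31-ps11 has 2 bases that differ from Rpl31-ps8, and the groups were separated in opposite directions. Over the whole coding sequence, 6 bases of Rpl31-ps14 and 5 of Rpl31-ps11 differ from Rpl31. In Rpl31-ps11, 1 of these is a gap and the reading frame is interrupted. Rpl31-ps10 (10, 15 and 11 counts against 0, 1 and 0) and Rpl31-ps12 (9, 5 and 22 against 1, 0 and 0) were also lower in every microbead library. Rpl31-ps9 had 0, 15 and 6 counts against 0 in each. Rpl31-ps6, Rpl31-ps16 and Rpl31-ps17 had at most 9 counts in any library and overlapped.

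Rpsa, at 363.3 ± 42.8 CPM in saline and 405.5 ± 94.1 CPM in microbead retina (n = 3 each), had 7 pseudogenes, 4 with fitted values below 0. Beside Rpsa-ps12, Rpsa-ps1 fell in the fit without filter (20, 14 and 34 counts against 2, 0 and 0, edgeR adjusted p = 0.0136). For Rpsa-ps11 there were 7, 3 and 4 counts against 1, 0 and 0. Rpsa-ps4 was higher in every microbead library, at 1.08, 0.578 and 0.650 CPM against 0.186, 0.394 and 0.399 CPM in saline, without passing the test (1.23, edgeR adjusted p = 0.174). Rpsa-ps2, with 7, 7 and 4 counts against 19, 5 and 3 in the shallower libraries, was also higher in each. Rpsa-ps9 and Rpsa-ps10 overlapped.

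All 6 pseudogenes of Rpl21, a large-subunit gene, had fitted values below 0, while Rpl21 was at 246.6 ± 31.004 CPM in saline and 307.5 ± 98.9 CPM in microbead retina (n = 3 each, edgeR adjusted p = 0.385). Rpl21-ps11, the one that passed the test without filter, had 23, 14 and 18 counts in saline and 0 in every microbead library (at least 7.38-fold lower, edgeR adjusted p = 0.00330). Rpl21-ps8 had 44, 21 and 34 counts against 11, 2 and 4 (log2 fold change -1.35, edgeR adjusted p = 0.198). The others were sparse. There were 15, 8 and 2 counts against 2, 0 and 0 for Rpl21-ps12, 5, 1 and 5 against 0 in each for Rpl21-ps15 and 1, 6 and 2 against 0, 2 and 1 for Rpl21-ps10, and all 10 counts of Rpl21-ps1 came from saline replicate 2. Of the 6 copies of Rps2, 5 had fitted values below 0. Rps2-ps5, Rps2-ps6 and Rps2-ps9 had 0 counts in every microbead library and at most 20 in any saline library, and Rps2-ps11 had 13, 9 and 4 counts against 1, 3 and 7. Rps2 was at 223.4 ± 28.2 CPM and 193.8 ± 54.5 CPM (n = 3 each).

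**Figure D2:**
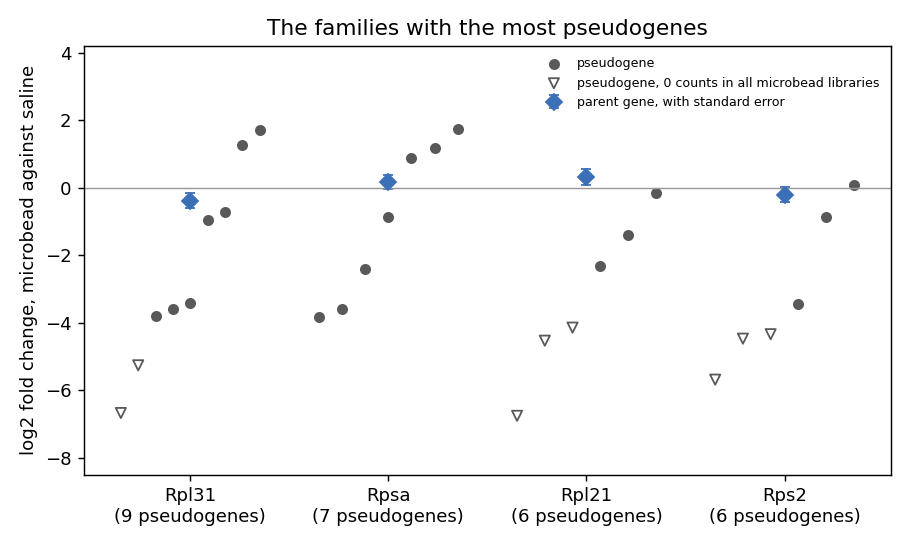
Log2 fold change, microbead against saline, of the pseudogenes of Rpl31, Rpsa, Rpl21 and Rps2 in the fit without filter (grey) and of the parent gene with its standard error (blue diamond, filtered fit). Open triangles mark pseudogenes at 0 counts in all microbead libraries, whose fitted values depend on the prior count of the fit. The parents lie between -0.38 and 0.32, and the Rpl31 and Rpsa copies spread to both sides of them.

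Of the 32 families with at least 2 pseudogenes, 21 had fitted values on both sides of 0, 11 had all values below 0 and 0 had all values above 0. Across genes, the fold changes of the pseudogenes had a Spearman correlation of 0.14 with those of their parents (138 pseudogenes, which share libraries and in part parents). The 53 parents all passed the filter, with at least 331 counts in every library. Of these, 8 fell, 2 rose and 43 did not pass the test, with a median of -0.23 and a range from -1.17 to 1.86. The extremes were the large-subunit genes Rpl13, which fell from 219.3 ± 26.3 CPM to 97.1 ± 24.8 CPM (n = 3 each, edgeR adjusted p = 0.0159), and Rpl23a, which rose from 45.2 ± 6.10 CPM to 163.6 ± 68.3 CPM (edgeR adjusted p = 0.0106). In the list of 86 cytosolic ribosomal protein genes, 84 were tested, of which 9 (10.7%) fell and 2 (2.38%) rose, with a median of -0.21.

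**Figure D3:**
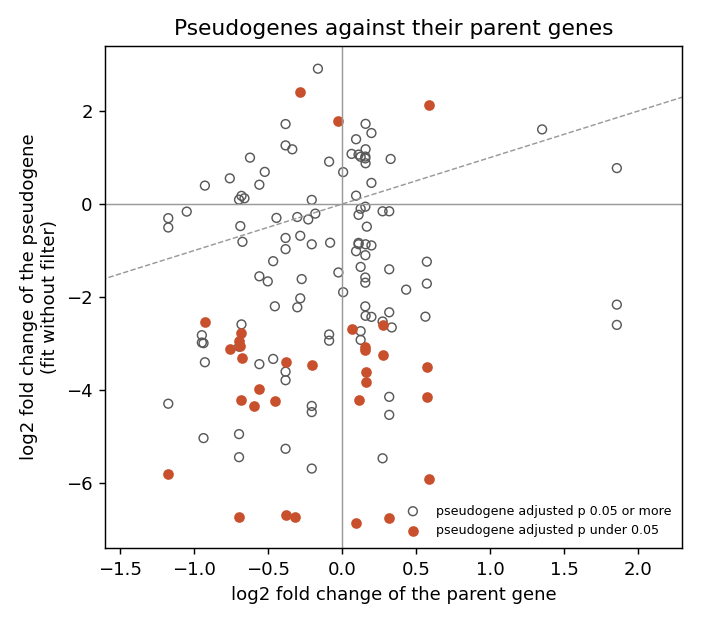
Log2 fold change of each of the 138 pseudogenes (fit without filter) against that of its parent gene (filtered fit), with pseudogenes past an adjusted p of 0.05 filled. Points on the dashed line would have changed as much as their parent. The parents span -1.17 to 1.86 and the pseudogenes -6.86 to 2.91, with 105 of 138 below 0. The 18 pseudogenes at 0 counts in all microbead libraries are not marked, and their fitted values depend on the prior count of the fit.

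Per kilobase of transcript, the median pseudogene lay at 0.576 CPM (0.0518 to 12.2) and the median parent at 86.3 CPM (10.5 to 479.0), and the Spearman correlation of pseudogene and parent CPM across genes was -0.01 over 138. Summed, the pseudogenes took 83.2, 71.8 and 92.0 CPM in the saline libraries and 83.2, 54.9 and 64.9 CPM in the microbead libraries, and these values overlapped. They made up 0.945%, 0.892% and 0.897% of the summed counts of their parents in saline and 0.783%, 0.794% and 0.903% in microbead libraries, which overlapped as well.

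The pseudogenes were also split by the number of bases that differ from the parent, in classes that were set after the values were seen and carry no test. The 11 with no base different over the aligned length had a median log2 fold change of 0.91 in the fit without filter, 9 of them above 0. Of the 11, 6 were higher in every microbead library than in any saline library and 1 was lower. Among genes with 10 to 648 summed counts, 13.0% were higher and 14.9% lower in this way. The 25 with 1 to 3 different bases had a median of -1.24 and 6 values above 0. The 38 with 4 to 10 had a median of -2.11 and 5 values above 0, and the 22 with 11 to 20 a median of -1.31 and 7 above 0. The 40 with more than 20 had a median of -2.69 and 6 above 0. Among the identical copies 0 were at 0 counts in all microbead libraries, against 4, 1, 1 and 12 in the other classes and 7.18% of genes with 10 to 648 summed counts. In the edgeR fit without filter, 8 of 25, 9 of 38, 5 of 22 and 7 of 40 fell and 0, 2, 0 and 1 rose. Of the genes with 10 to 648 summed counts, 5.22% fell and 3.47% rose in that fit. Of the 11 identical copies, 0 passed there in either direction (2 higher and 0 lower at an unadjusted p under 0.05), while DESeq2 and limma-voom with the filter each called 1 higher, Rpl31-ps8.

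Among the other identical copies, which are named here after their values were seen, Rps6-ps4 had 21, 27 and 32 counts in saline and 36, 20 and 15 in the shallower microbead libraries (log2 fold change 1.08, edgeR adjusted p = 0.167). Rpl28-ps1 had 18, 22 and 16 counts against 21, 12 and 17 (1.13, edgeR adjusted p = 0.135), and Rpl36a-ps2 had 15, 26 and 24 against 32, 11 and 11 (0.97, edgeR adjusted p = 0.250). Each of these 3 was higher in CPM in every microbead library. Rps23-ps1, which holds part of the coding sequence, had the highest fitted value without filter, 2.91, and did not pass that test. It lies over an exon of Gm5148 on the opposite strand, and Gm5148 rose (log2 fold change 1.22, edgeR adjusted p = 0.0227). The 2 identical copies with values below 0 were Rpl38-ps2 (89, 55 and 74 counts against 28, 12 and 15) and Rpl27-ps3 (7, 5 and 8 against 0, 1 and 0). Their parents had log2 fold changes of -0.67 (Rpl38, edgeR adjusted p = 0.122) and -0.95 (Rpl27, edgeR adjusted p = 0.0181).

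**Figure D4:**
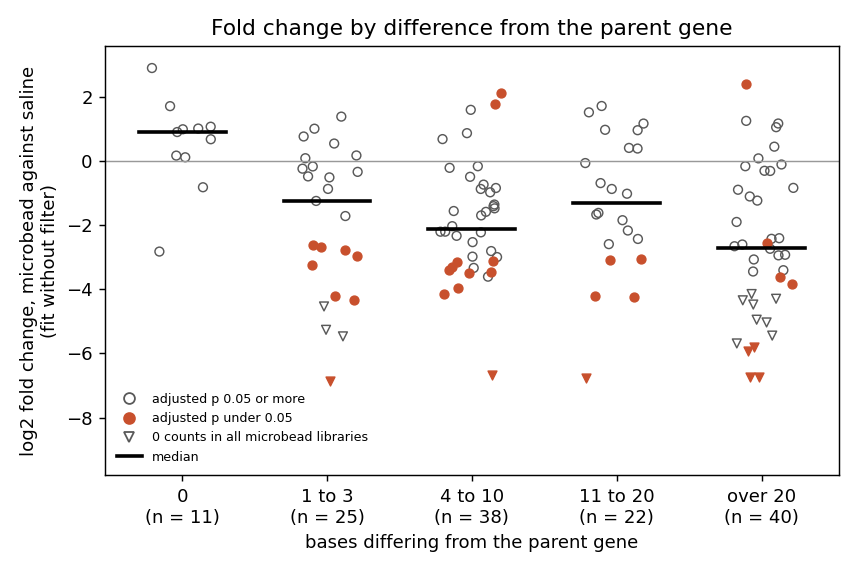
Log2 fold change, microbead against saline, of the 136 annotated pseudogenes (fit without filter), by the number of bases that differ from the parent gene, with the median of each class as a bar. Filled symbols passed an adjusted p of 0.05 and triangles are at 0 counts in all microbead libraries. The class without differences has a median of 0.91 and the others medians between -2.69 and -1.24.

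In summed level, the identical copies were at 10.5, 8.61 and 12.7 CPM in the saline libraries and 18.3, 13.4 and 15.3 CPM in the microbead libraries, with no overlap. The copies with 1 to 3 different bases went the other way without overlap, with 20.6, 17.5 and 21.5 CPM against 15.9, 10.5 and 12.5 CPM. In the 3 other classes the libraries overlapped. With any 1 library left out, the mean saline sum stayed at 0.612 to 0.743 times the mean microbead sum for the identical copies and at 1.41 to 1.73 times for those with 1 to 3 different bases. Such sums weigh abundant copies most. Among the identical copies, Rpl10a-ps1, which did not pass the test, alone had a mean of 4.30 CPM over the 6 libraries.

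**Figure D5:**
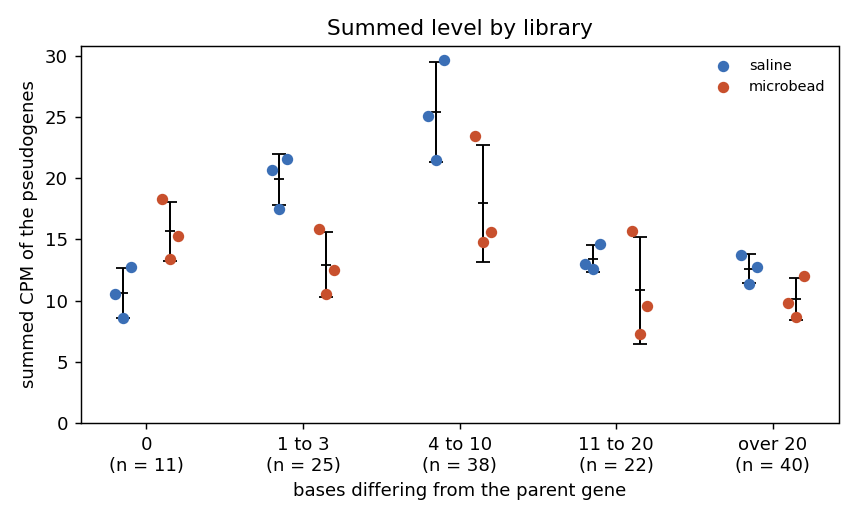
Summed CPM of the pseudogenes in each class of difference from the parent gene, for the 3 saline (blue) and 3 microbead (orange) libraries, with mean and SD. The identical copies lie higher in all 3 microbead libraries (13.4 to 18.3 CPM) than in the saline libraries (8.61 to 12.7 CPM), and those with 1 to 3 different bases lie lower.

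As a description across genes, which share libraries and families, the Spearman correlation of the log2 fold change without filter was 0.26 with percent identity to the parent, 0.21 with the share of 100-base stretches found in the parent and -0.08 with length (136 pseudogenes each). Of the 136, 28 shared no 100-base stretch with any other annotated locus, and in 13 every such stretch was shared. By position, the median was -2.21 for the 86 between genes, -1.48 for the 44 in introns and -1.11 for the 6 over exons. It was -1.51 for the 82 with an open reading frame and -1.69 for the 29 with an interrupted one. In 3 pseudogenes the coding gene with most shared sequence was not the named parent. Rpl36a-ps3 shared 89.3% of its 31-base stretches with Rpl36al and 0% with Rpl36a, Rps18-ps3 shared 81.5% with Gm11361 and 79.1% with Rps18, and Rps4l-ps shared 0.678% with Rps4x and 31.7% with Rps4l, which is not annotated as coding. How the authors counted reads that align to several loci was not given in the sources used here, so the counts of a close copy are uncertain, and reads of the parent among them cannot be told apart.

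Other named pseudogenes, with "-ps" in the symbol and parents that are not ribosomal protein genes, were examined in the same way. Of 200 with at least 10 counts, 21 (10.5%) fell and 6 (3%) rose in the edgeR fit without filter, with a median log2 fold change of -0.84, against 29 (21.0%) and 3 (2.17%) and a median of -1.70 for the ribosomal protein pseudogenes. The difference between these lists was not tested.

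At the limit of 10 summed counts, Rpl13-ps5 (2, 5 and 3 in saline), Rpl21-ps1 (0, 10 and 0) and Rps2-ps9 (7, 2 and 1) were just inside, and Rps15a-ps8 (4, 3 and 2) and Rpl27-ps2 (0, 5 and 4) just outside, all with 0 counts in every microbead library. A limit of 0.0590 CPM on the mean level, which does not weight the deeper group more, kept 133 names, of which 132 were among the 138. Of these 133, 29 fell and 3 rose in the fit without filter, with a median of -1.58.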

How the data were processed

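The authors aligned the reads with STAR 2.5.3a to GRCm38.p5, gave it GENCODE vM12, and counted reads per gene with featureCounts (1.15.2); the raw counts were deposited without normalization. Handling of strand and of reads with several alignments was not given in the sources used here. Columns of the authors' DESeq2 comparison in the same table were not used. Members and gene lists were chosen with earlier results of these data known. Counts were scaled to CPM by TMM library sizes. Groups were compared with edgeR 4.0.16 (quasi-likelihood, filterByExpr with minimum count 10 and total 15, Benjamini-Hochberg, threshold 0.05) in R 4.3.3, after being tested on simulated data; DESeq2 1.42.0 and limma 3.58.1 (voom) were alternatives, beside other scalings, filters, thresholds, a replicate block and each library left out. A standard error is the absolute log2 fold change divided by the root of its F. Pooled ratios carry exact (Clopper-Pearson) 95% intervals, and a group at 0 a floor of 3 counts over the group; both cover counting error only. Ratios to the parent used a prior count of 0.5. Members were aligned to their parents' transcripts (GENCODE vM21) with Biopython 1.88. Genes named by rule were the 8 largest falls and 8 largest rises past the test (2 rose), the 8 most abundant, the 5 most abundant of other types, the largest families, their parents and the members nearest the limit of 10 counts. Sequences are printed for part of these, and for none on chromosome 18.

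The numbers 1 to 3 that end the sequencing names in the labels' descriptions do not pair the libraries: deviations of same-numbered libraries correlated at -0.04, 0.14 and 0.01. Within a group, the chi-square over its degrees of freedom between libraries was 22.0 to 121.5, so each library was counted once.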

Additional observations from a re-analysis of the deposited data

How the results depend on the processing

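With RLE or upper-quartile scaling, DESeq2 and limma-voom the median of the pseudogenes stayed below 0 and more fell than rose. The number of pseudogenes that rose, 2 as reported, was 4 with upper-quartile scaling, DESeq2 and limma-voom. The count of all tested genes called, 2261 as reported, was 3582 with DESeq2 and 3720 without the filter. DESeq2 gave 13 parents lower and 4 higher, and 19 ribosomal protein genes lower and 5 higher, and without the filter 15 parents and 23 ribosomal protein genes were lower. The median of the pseudogenes was -1.70 without the filter, and -1.58 with members kept by mean CPM, an alternative added after seeing the data. A minimum of 10 counts in every library, which by construction drops members near 0 in the microbead group, left 22 pseudogenes. Of these, edgeR gave 0 lower (1 at an unadjusted p under 0.05) and 5 higher, and the median reversed to 0.85. Over all 14710 genes in that fit, 2210 were called in either direction, and the median was -0.02. The log2 ratio of the members' percent of their parents, -0.14 as reported, reversed to 0.013 with those members that passed the filter.

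With the replicate block, edgeR called 905 genes, 3 pseudogenes lower and 0 higher (27 and 5 at an unadjusted p under 0.05), 4 parents lower and 4 ribosomal protein genes lower. The libraries share a number and nothing more, and 1 of 3 same-numbered pairs correlated best with its own number. At an adjusted p under 0.01, edgeR called 87 genes, and 0 pseudogenes, parents or ribosomal protein genes in either direction (30 pseudogenes lower and 9 higher at an unadjusted p under 0.05).

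With each library left out in turn, 52 to 92 pseudogenes were tested. Those lower ran from 0 to 11 and those higher from 0 to 2, and the median of the pseudogenes tested from -1.48 to -0.25. Without the filter, added after seeing the data, they ran from 13 to 25 lower and 1 to 3 higher, with medians of -1.73, -1.70 and -1.59 without saline replicates 1, 2 and 3 and -1.78, -1.72 and -1.93 without microbead replicates 1, 2 and 3. The count of all tested genes called ran from 46 to 2621, parents lower from 0 to 12 and higher from 0 to 2, and ribosomal protein genes lower from 0 to 18 and higher from 0 to 2. The log2 ratio of the summed level ran from -0.46 to -0.15 and that of the percent of parents from -0.21 to -0.10. Depth limits the sparse members: 42 of 138 had 1 to 3 counts over the microbead libraries and 18 had 0.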
